A study of Mus musculus with 20 samples.

Results

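Aminoacyl-tRNA synthetases join each amino acid to its transfer RNA, the step that supplies charged tRNA to the ribosome. Cytosolic and mitochondrial protein synthesis are served mostly by separate nuclear genes, and by convention the mitochondrial ones carry a name ending in 2. In the cytosol several of these enzymes are held together with scaffold proteins in the multisynthetase complex. Many cytosolic synthetase genes are known targets of ATF4, the transcription factor of the amino acid response, and MYC is known to raise many genes of protein synthesis. The intestinal epithelium renews itself continuously and has a high demand for protein synthesis.

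The 35 genes described here, 20 cytosolic and 15 mitochondrial, were taken by name: every probe whose gene name in the scanner files was that of a synthetase was used, and the brightest probe stood for the gene. They are 35 of 25043 named genes on the array and have 85 of its 56605 probes. All 35 were well above background on every one of the 20 arrays and all were tested. Of the 35, 10 had 1 probe and 25 had several. Lysine and glycine have no separate mitochondrial gene, since Kars and Gars serve both compartments.

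Intestinal tissue of C57BL6/j mice was profiled on 1-colour Agilent arrays, 1 array per mouse, in 4 groups. The 6 Cre control mice were VillinCreER/0 and the 6 BRAFV600E mice VillinCreER/0/BrafV600E-LSL/+, in which tamoxifen lets the Villin-driven recombinase switch on the mutant kinase in gut epithelial cells. Both groups were 8 to 12 weeks old and were harvested 3 days after the last of 3 daily doses of 2 mg tamoxifen, so the controls carried Cre and received tamoxifen too. The 4 MEKi and 4 Vehicle mice received 2 tamoxifen injections and then 3 injections of the MEK inhibitor PD184352 or of its carrier. Their genotype is not in the labels and was read from the study's figure legends, which name mice with the mutant allele. The first pair of groups asks what the mutant kinase changes within days, the second what changes when MEK, the kinase directly below it, is inhibited.

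Each level below is the log2 processed signal of the probe minus the 75th percentile of its array, and each difference is on that log2 scale, so that +1 is a doubling relative to the array's other probes. Slides were told apart by the scan date in the file headers, and they held the groups unevenly. Slide 1 carried the 6 Cre control arrays with BRAFV600E replicates 1 and 2, slide 2 the other 4 BRAFV600E arrays, and slide 3 all MEKi and Vehicle arrays in separate rows. The intestinal epithelial markers were present in every group, and a list of 8 direct MAPK outputs behaved according to the labels: 8 of 8 rose with BRAFV600E (median +1.32) and 5 of 8 fell with MEKi (median −1.92). At the threshold used below, 6.1% of all genes were higher with BRAFV600E and 0.884% lower with MEKi. Vehicle replicate 2 stood apart through exocrine pancreas transcripts, whose summed level was 2145 times the array's 75th percentile there against 5.57 for the lowest Vehicle array. Signal from at least 2 of 4 Y-linked genes was found on 3 of 6 Cre control, 4 of 6 BRAFV600E, 4 of 4 MEKi and 2 of 4 Vehicle arrays. In such bulk tissue, fewer cells of a type and less RNA per cell cannot be told apart.

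RefSeq promoter windows (build GRCm38.p6, 250 bases before to 50 after the gene start) were found for 13 of 20 cytosolic and 14 of 15 mitochondrial genes. The letters TGATGNAA, the core of the C/EBP-ATF response element through which ATF4 acts, stood on either strand in 5 of the 13 cytosolic windows (38.5%), in 0 of the 14 mitochondrial ones and in 4.51% of all 27025 genes with a window, a difference between the classes that was not tested. For comparison, 6 of 20 genes of an ATF4 programme list held it. The 5 cytosolic genes were Aars, Gars, Iars, Tars and Yars. For each, 1 match is shown in capitals within 30 bases of the gene's own strand (TTNCATCA is the same motif on the opposite strand). They are shown because ATF4 acts through elements with this core, and whether it acts at these matches was not tested. A match in these windows is a description of the letters only.
Gars (chr6:55037960-55037989, plus strand, match starting 30 bases before the gene start): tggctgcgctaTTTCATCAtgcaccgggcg
Tars (chr15:11399655-11399684, minus strand, 15 bases before): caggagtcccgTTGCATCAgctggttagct
Aars (chr8:111033840-111033869, plus strand, 9 bases after): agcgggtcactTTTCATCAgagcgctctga
Iars (chr13:49682126-49682155, plus strand, 7 bases after): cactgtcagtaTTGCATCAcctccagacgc
Yars (chr4:129189895-129189924, plus strand, 3 bases after): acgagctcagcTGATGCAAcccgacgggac

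The E-box CACGTG, the palindrome that MYC and related factors recognise, was in 4 of the 13 cytosolic windows (30.8%), in 1 of the 14 mitochondrial ones (7.14%) and in 8.09% of all genes. Its cytosolic holders were Aars, Farsb, Iars and Tars, so that Aars, Iars and Tars held both motifs, and Ears2 was the mitochondrial one. The Farsb match is printed because Farsb was the cytosolic gene called higher with BRAFV600E.
Farsb (chr1:78488919-78488948, minus strand, 39 bases before the gene start): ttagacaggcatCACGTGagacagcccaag

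At 3 days after the last tamoxifen dose the synthetase genes were in most cases slightly above the controls in BRAFV600E mice, and few of them individually passed the test. Of the 20 cytosolic genes, 18 were higher and 2 lower, with a median difference of +0.31, while the median over all 19039 genes tested was −0.02 and 48.5% of them were higher. Of the 15 mitochondrial genes, 12 were higher, with a median of +0.20. The fit across all genes (limma, Benjamini-Hochberg adjusted p under 0.05) called 2 cytosolic genes, Farsb higher and Farsa lower, and 1 mitochondrial gene, Iars2 higher. Relative to the median of all genes, the cytosolic median stayed between +0.25 and +0.43 under the other scalings tried. With slide as a block the cytosolic median was +0.15, or 0.22 above that of all genes, and Farsa was the only gene of the 35 called. The calls make up 10.0% of the cytosolic and 6.67% of the mitochondrial genes, against 12.2% of all genes called (6.1% higher and 6.13% lower), so the share called was not above the background. At an unadjusted p under 0.05 stood 12 of the 35 genes, beside 5717 of all 19039.

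**Figure D1:**
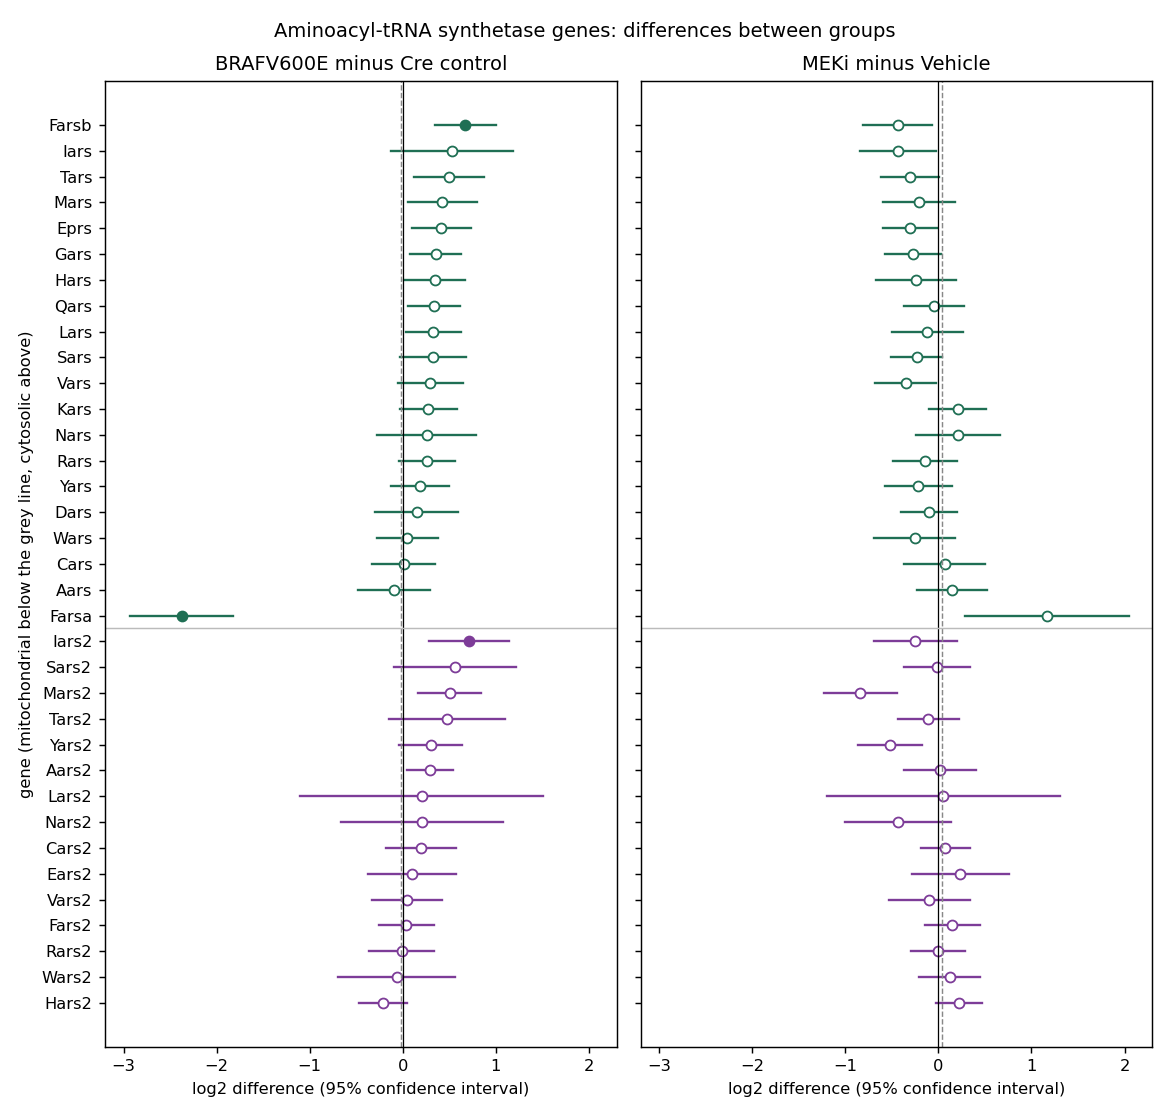
Log2 differences of all 35 synthetase genes (points) with 95% confidence intervals (lines), for BRAFV600E minus Cre control on the left (6 and 6 arrays) and MEKi minus Vehicle on the right (4 and 4 arrays). Green marks cytosolic and purple mitochondrial genes, filled points are those called, and the dashed line is the median of all genes tested. Most points lie right of 0 on the left panel, 18 of 20 cytosolic and 12 of 15 mitochondrial, with Farsa far to the left at −2.38, and 15 of 20 cytosolic points lie left of 0 on the right panel.

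Farsa and Farsb encode the alpha and beta subunits of the same enzyme, cytosolic phenylalanyl-tRNA synthetase, and their representative probes moved apart. Farsb levels ran from 1.46 to 1.98 (median 1.77) in Cre control and from 1.97 to 2.70 (median 2.47) in BRAFV600E. The lowest BRAFV600E array lay just under the highest control, and the other 5 lay above all controls. The difference was +0.67 (SE 0.15, 95% confidence interval 0.35 to 1.00, adjusted p = 0.0152 in limma, n = 6 and 6), a 1.59-fold rise. The Farsb probe lies at chr1:78440318-78451340 (mm9), so its 60 bases span 11023 bases of the genome. A second Farsb probe, dimmer but above background on all 12 arrays, differed by +1.29 (SE 0.47, adjusted p = 0.103 among probes), and the third was above background on 4 of 12 arrays and was not tested. With slide as a block, which here takes the difference from slide 1 alone because slide 2 held no control, Farsb differed by +0.67 with adjusted p = 0.0819 in limma.

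Farsa was the synthetase gene with the largest difference, and it rested on 1 of its 4 probes. Its brightest probe, at chr8:87392808-87392867 (mm9), ran from 3.01 to 4.28 (median 3.58) in Cre control and from 0.64 to 1.98 (median 1.19) in BRAFV600E, with no overlap between the groups. Groups did not overlap for this 1 gene of the 35 (2.86%), beside 7.35% of all genes. The difference was −2.38 (SE 0.25, 95% confidence interval −2.93 to −1.83, adjusted p = 1.76e-04 in limma), a 5.20-fold lower signal, and it was −2.80 with slide as a block (adjusted p = 6.32e-04) or within slide 1 (adjusted p = 0.00473). The probe that starts 219 bases further on, the other bright probe of the gene, ran from 1.72 to 2.53 in Cre control and from 2.16 to 2.59 in BRAFV600E, and differed by +0.05 (SE 0.16, adjusted p = 0.883 among probes). Both dimmer probes, which start 2400 and 4457 bases before the brightest, differed by +0.35 (SE 0.35) and +0.23 (SE 0.33). The 4 probes therefore do not give Farsa 1 direction, and with the mean of all its probes the gene was not called. The longest run of bases that the brightest probe shared, on either strand, with any of the other 56604 probes was 14 of its 60.

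The first 30 bases of each of the bright Farsa probes are shown, because these probes lie within the same short stretch of the gene and disagree. Whether they lie in an exon, an intron or a UTR was not analysed here.
Brightest probe, A_52_P410520 (chr8:87392808-87392837, mm9): gtgggccacaaggtgaacctgcagatggta
Probe 219 bases further, A_55_P2798169 (chr8:87393027-87393056, mm9): ataagtatggggagttcttatgctggcttt

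**Figure D2:**
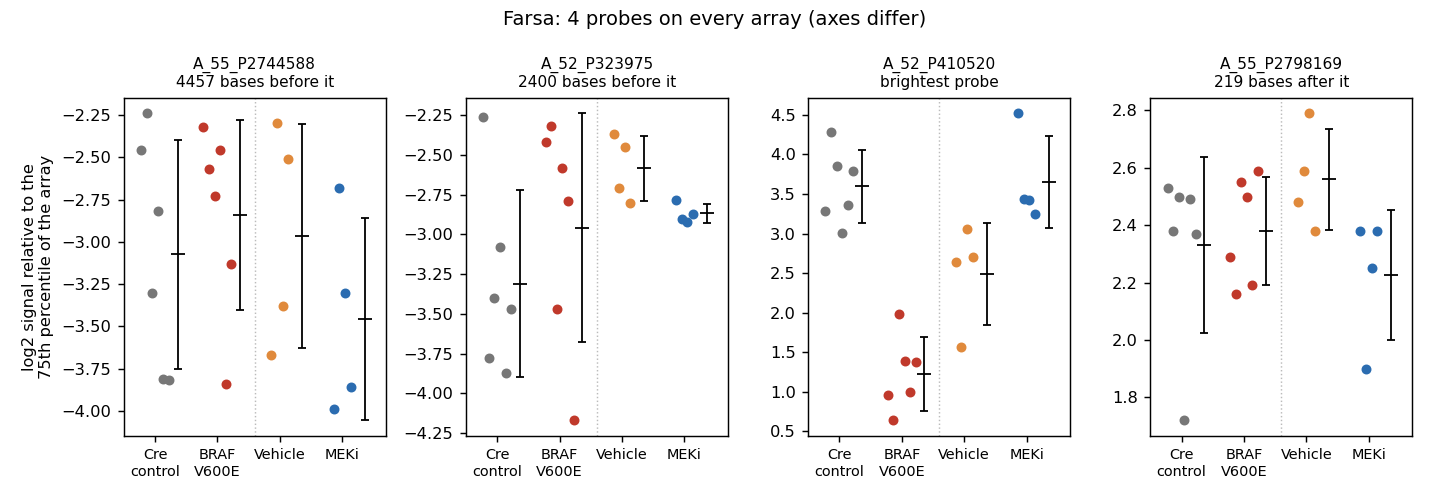
Log2 signal, relative to the 75th percentile of the array, of the 4 Farsa probes on every array (points), ordered along the chromosome, with the group mean and SD beside the points (6 Cre control, 6 BRAFV600E, 4 Vehicle and 4 MEKi arrays). Only the brightest probe separates BRAFV600E (0.64 to 1.98) from Cre control (3.01 to 4.28) and MEKi (3.25 to 4.52) from Vehicle (1.57 to 3.06).

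Tars, which charges threonine, was the cytosolic gene with the next smallest p. Its levels were 2.63 to 3.45 (median 2.72) in Cre control and 3.03 to 3.64 (median 3.43) in BRAFV600E. Cre control replicates 1 and 6 lay among the BRAFV600E arrays and the other 4 controls below them. The difference of +0.50 (SE 0.17, adjusted p = 0.0759 in limma) did not pass, and with slide as a block it was +0.23. Among the other free cytosolic enzymes Gars (glycine) differed by +0.36, Hars (histidine) by +0.34, Sars (serine) by +0.32, Vars (valine) by +0.30, Nars (asparagine) by +0.26 and Yars (tyrosine) by +0.18. Cars (cysteine) and Wars (tryptophan) were near 0, at +0.01 and +0.05, and Aars (alanine) stood at −0.10, a sign that turned without scaling between arrays (+0.71, where the median of all genes was +0.79) and that held with slide as a block (−0.44).

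The 8 cytosolic enzymes of the multisynthetase complex showed the same small shift as a group. All 8 were higher, from +0.15 to +0.53 with a median of +0.33, and 0 of 8 were called by limma, 4 of 8 standing at an unadjusted p under 0.05. Of all genes 48.5% were higher, and 5717 of 19039 stood at an unadjusted p under 0.05. Among the dimmer probes of these genes that of Qars was lower, at −0.18 (SE 0.25), and the others were higher. Iars (isoleucine) differed by +0.53, Mars (methionine) by +0.43, Eprs (glutamate and proline) by +0.41, Qars (glutamine) by +0.33, Lars (leucine) by +0.33, Kars (lysine) by +0.27, Rars (arginine) by +0.26 and Dars (aspartate) by +0.15. The 12 cytosolic enzymes outside the complex had a median of +0.28. Iars varied widely between controls, from 0.20 to 1.94, so that its difference had an SE of 0.30.

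The 5 cytosolic genes with TGATGNAA in the promoter window ranged from −0.10 to +0.53 with a median of +0.36, and the 8 with a window without it ranged from −2.38 to +0.67 with a median of +0.33. With MEKi the medians were −0.28 (from −0.43 to +0.15) and −0.16 (from −0.44 to +1.17). In both comparisons the range of the 8 enclosed that of the 5. With BRAFV600E this rested on the brightest Farsa probe. The next lowest of the 8 was Dars at +0.15, above Aars at −0.10.

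Among the mitochondrial enzymes, Iars2, which charges isoleucine, rose. Its levels were −1.03 to −0.09 (median −0.52) in Cre control and −0.26 to 0.54 (median 0.20) in BRAFV600E, and the groups overlapped in that BRAFV600E replicate 5 fell within the controls' range and Cre control replicates 4 and 6 within that of BRAFV600E. The difference was +0.71 (SE 0.20, 95% confidence interval 0.29 to 1.14, adjusted p = 0.0350 in limma, n = 6 and 6). It lost its call with slide as a block (+0.74, adjusted p = 0.133) and when Y-linked signal entered the fit, and the other 4 Iars2 probes, all dimmer, differed by +0.18, −0.30, −0.82 and −1.02, none of them called. The direction of Iars2 thus held on 2 of its 5 probes.

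Mars2, the mitochondrial methionine enzyme, had its 1 probe far below the array's 75th percentile but above background on every array. It ran from −3.91 to −3.06 (median −3.68) in Cre control and from −3.39 to −2.88 (median −3.15) in BRAFV600E. Cre control replicate 6 was as high as the BRAFV600E arrays and the other 5 controls lay below all of them. The difference was +0.50 (SE 0.155, adjusted p = 0.0522 in limma), just short of the threshold. Aars2, the mitochondrial alanine enzyme, ran from −0.47 to −0.16 in Cre control and from −0.27 to 0.12 in BRAFV600E, a difference of +0.29 (SE 0.12, adjusted p = 0.111).

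The remaining mitochondrial genes lay between −0.21 and +0.56. Sars2 differed by +0.56, Tars2 by +0.47, Yars2 by +0.30, Lars2 and Nars2 by +0.20 each, Cars2 by +0.20, Ears2 by +0.10, Vars2 and Fars2 by +0.04 each, Rars2 by −0.01, Wars2 by −0.07 and Hars2 by −0.21. Some of these were measured poorly. Cre control replicate 6 was the lowest control for Sars2 (−1.98, the next −0.83) and for Tars2 (2.16, the next 3.44). The SEs of these differences were 0.30 and 0.29, and the second Sars2 probe gave −0.18 (SE 0.19). The Lars2 probe had an SD of 1.48 among the 6 controls and its difference an SE of 0.60, while the second Lars2 probe gave +0.45 (SE 0.18), and a second Yars2 probe gave +1.09 (SE 0.33, adjusted p = 0.0556 among probes). Over all probes tested one by one, 35 of 41 cytosolic and 25 of 38 mitochondrial probes were higher in BRAFV600E, with 2 and 1 called, beside 9.24% of all probes called.

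**Figure D3:**
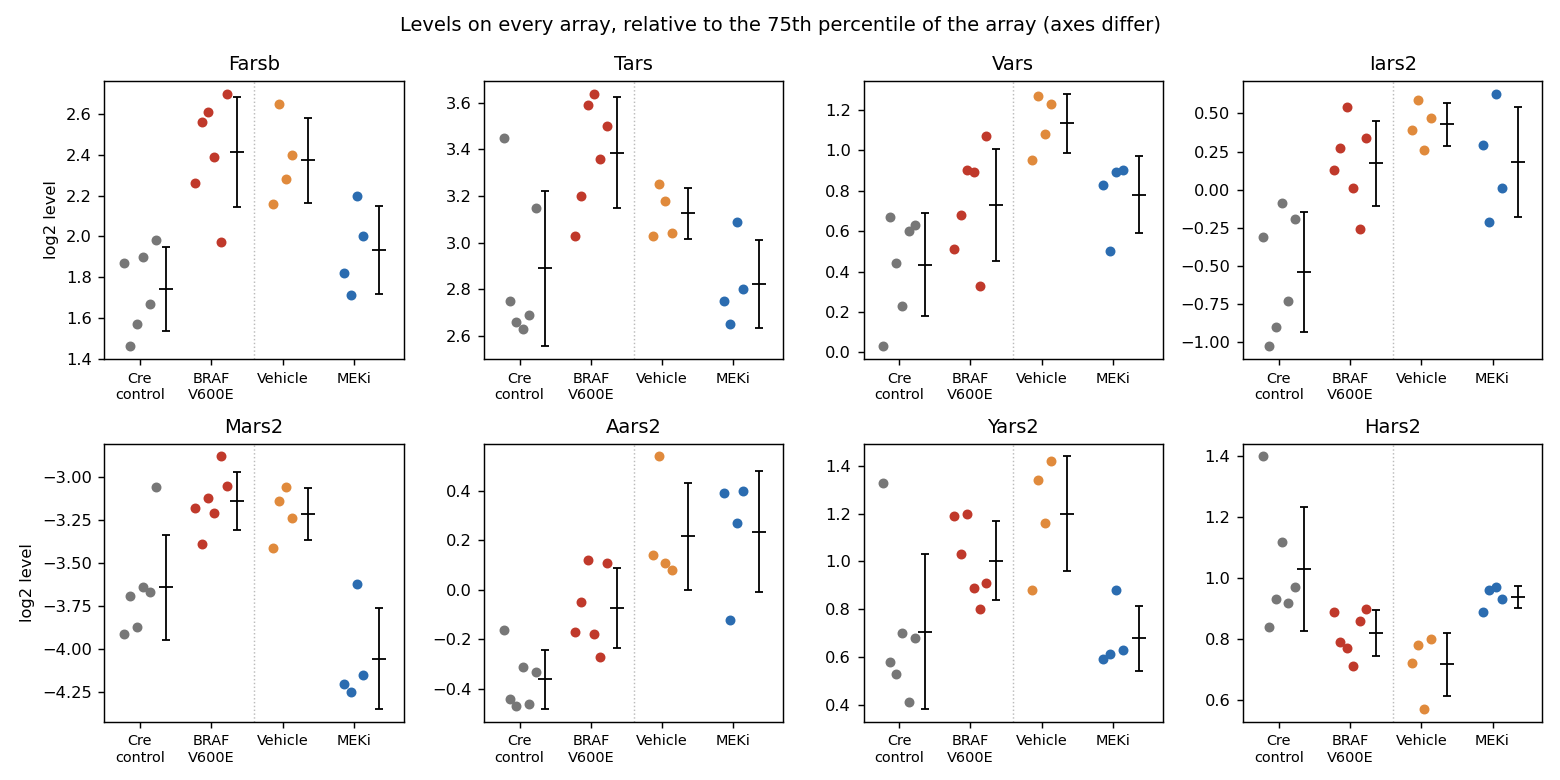
Log2 level, relative to the 75th percentile of the array, of 8 synthetase genes on every array (points, 6 Cre control, 6 BRAFV600E, 4 Vehicle and 4 MEKi arrays), with the group mean and SD beside the points. Farsb lies between 1.97 and 2.70 in BRAFV600E and between 1.46 and 1.98 in Cre control, and Mars2 lies between −4.25 and −3.62 in MEKi, below the Vehicle arrays at −3.41 to −3.06.

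Averaged over its members, each class overlapped between BRAFV600E and Cre control. For each array the mean over the cytosolic genes of the level minus that gene's mean over the 12 arrays was computed, and it ran from −0.22 to 0.08 in Cre control and from −0.16 to 0.29 in BRAFV600E. On slide 1 BRAFV600E replicates 1 and 2 had −0.03 and −0.04, inside the range of the 6 controls on the same slide. BRAFV600E replicates 3, 4 and 6 on slide 2 had 0.29, 0.15 and 0.26 and had 18 of the 20 genes above their own mean, while replicate 5 on the same slide had −0.16 and 7 of 20. The brightest Farsa probe enters these means and, far lower in BRAFV600E, lowers those of that group. The median over the 20 genes, which a single gene moves less, was −0.064 and 0.069 for BRAFV600E replicates 1 and 2. It ran from −0.255 to 0.068 in the controls. Over the 8 complex members, which leave Farsa out, the means of BRAFV600E replicates 1 and 2 were 0.25 and 0.11, above all 6 controls on their slide (−0.38 to 0.05), and replicate 5 had −0.10, below 2 of them. With slide as a block the mitochondrial median was +0.25 with 0 calls, and the sign turned for 5 of the 35 genes, none of them called. They were Cars (−0.30), Ears2 (−0.44), Fars2 (−0.10), Vars2 (−0.18) and Wars2 (+0.51). The mitochondrial class mean ran from −0.41 to 0.15 in Cre control and from −0.05 to 0.27 in BRAFV600E.

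**Figure D4:**
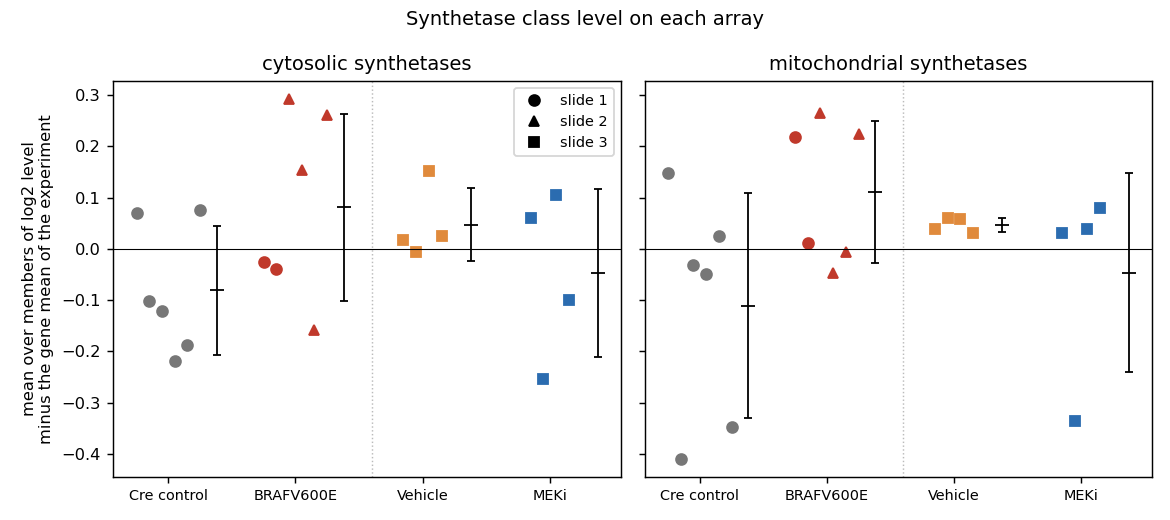
Mean over the members of each class of the log2 level minus the gene's mean in that experiment, for every array (points), with the group mean and SD beside them, circles for slide 1, triangles for slide 2 and squares for slide 3. The cytosolic means of BRAFV600E spread from −0.16 to 0.29, with both circles of that group at −0.03 and −0.04 among the control circles, and MEKi replicate 2 is the lowest MEKi array in both panels at −0.25 and −0.34. The brightest Farsa probe, far lower in BRAFV600E, enters the cytosolic means.

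When MEK was inhibited, the cytosolic synthetase genes were slightly lower in most cases and the mitochondrial ones showed no common direction. Of the 20 cytosolic genes 15 were lower and 5 higher in MEKi than in Vehicle, with a median of −0.21, while the median over all 19231 genes tested was +0.04. Of the 15 mitochondrial genes 8 were lower and 7 higher, with a median of −0.01. limma called 0 of the 35, beside 1.96% of all genes (1.07% higher and 0.884% lower), and 7 of the 35 had an unadjusted p under 0.05, beside 3150 of all genes. Testing every probe by itself also gave 0 calls among theirs, beside 0.922% of all probes. Groups did not overlap for 5 of the 35 genes (14.3%), beside 12.2% of all genes. Row of the slide and group cannot be told apart in this experiment. Y-linked signal was uneven too, found on 4 of 4 MEKi and 2 of 4 Vehicle arrays. With it as a covariate limma called 53 of all genes in place of 376. The medians were then −0.22 for the cytosolic and −0.05 for the mitochondrial genes.

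The cytosolic genes with the smallest p were Farsa, Farsb and Vars. The brightest Farsa probe had levels of 4.52, 3.44, 3.42 and 3.25 in MEKi and 2.64, 1.57, 3.06 and 2.70 in Vehicle, and every MEKi array was above every Vehicle array. The difference was +1.17 (SE 0.38, 95% confidence interval 0.29 to 2.05, adjusted p = 0.182 in limma, n = 4 and 4). The bright probe 219 bases further on gave −0.33 (SE 0.16) and both dim ones −0.28 and −0.49, so the disagreement between Farsa probes was found in this experiment too, with each sign turned.

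Farsb had levels of 1.82, 1.71, 2.20 and 2.0 in MEKi and 2.16, 2.65, 2.28 and 2.40 in Vehicle, with MEKi replicate 3 above the lowest Vehicle array. The difference was −0.44 (SE 0.16, adjusted p = 0.219 in limma). Vars had 0.83, 0.50, 0.89 and 0.90 in MEKi and 0.95, 1.27, 1.08 and 1.23 in Vehicle, without overlap, and differed by −0.35 (SE 0.14, adjusted p = 0.261).

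Of the complex members 7 of 8 were lower, with a median of −0.13. Iars differed by −0.43, Eprs by −0.31, Mars by −0.21, Rars by −0.15, Lars by −0.12, Dars by −0.10, Qars by −0.05 and Kars by +0.21. Among the others Tars differed by −0.31, Gars by −0.28, Wars by −0.26, Hars by −0.24, Sars by −0.23 and Yars by −0.21, while Nars, Aars and Cars were higher by +0.21, +0.15 and +0.07. None of these passed the test.

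Mars2 came closest to a call. Its levels were −4.20, −4.25, −3.62 and −4.15 in MEKi and −3.41, −3.14, −3.06 and −3.24 in Vehicle, and all MEKi arrays were below all Vehicle arrays. The difference was −0.84 (SE 0.17, 95% confidence interval −1.23 to −0.45, adjusted p = 0.0521 in limma), and it was called under 4 of 16 alternative settings. Yars2, the mitochondrial tyrosine enzyme, had 0.59, 0.61, 0.88 and 0.63 in MEKi and 0.88, 1.34, 1.16 and 1.42 in Vehicle. MEKi replicate 3 lay just below the lowest Vehicle array, and the difference was −0.52 (SE 0.15, adjusted p = 0.141). Hars2, the mitochondrial histidine enzyme, had 0.89, 0.96, 0.97 and 0.93 in MEKi and 0.72, 0.78, 0.57 and 0.80 in Vehicle, again without overlap, and differed by +0.22 (SE 0.11, adjusted p = 0.358).

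The other mitochondrial genes lay between −0.43 for Nars2 and +0.24 for Ears2. Iars2 differed by −0.25, Tars2 by −0.11, Vars2 by −0.10, Sars2 and Rars2 by −0.01 each, Aars2 by +0.01, Lars2 by +0.05, Cars2 by +0.07, Wars2 by +0.12 and Fars2 by +0.15. Without Vehicle replicate 2, the array with pancreas transcripts, limma still called 0 of the 35, and the medians were −0.18 for the cytosolic and −0.03 for the mitochondrial genes.

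Both comparisons use different mice, and genes that were higher with BRAFV600E were mostly lower with MEKi. The signs were opposite for 26 of the 35 genes (74.3%), beside 70.1% of 18576 genes tested in both. Higher with BRAFV600E and lower with MEKi were 15 of 20 cytosolic (75%) and 7 of 15 mitochondrial genes (46.7%), beside 32.5% of all genes. Across the 35 genes Pearson's r between the differences was −0.79 and Spearman's rho −0.66, and r was −0.59 without Farsa, beside −0.58 across all genes. Genes are not independent replicates, and these are descriptions. Hars and Hars2, which charge the same amino acid in the cytosol and the mitochondrion, had opposite signs in both experiments, +0.34 and −0.21 with BRAFV600E and −0.24 and +0.22 with MEKi, on the scale relative to the array's 75th percentile and for the brightest probe of each. A second Hars2 probe gave −0.63 (SE 0.32) and +0.28 (SE 0.33), and the remaining one, also above background on every array, gave +0.20 (SE 0.17) with BRAFV600E, the sign of Hars, and +0.11 (SE 0.18) with MEKi. Wars and Wars2 also had opposite signs in both, +0.05 and −0.07 with BRAFV600E and −0.26 and +0.12 with MEKi. For the brightest probes of Hars, Hars2, Wars and Wars2 limma called no difference in either comparison. A cytosolic and a mitochondrial gene for the same amino acid gave 16 pairings, with Fars2 paired to both Farsa and Farsb. With signs kept, the cytosolic difference was the higher of the pair in 9 with BRAFV600E and in 5 with MEKi. The median of cytosolic minus mitochondrial was +0.04 with BRAFV600E and −0.18 with MEKi, so with MEKi the cytosolic difference was mostly the lower.

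**Figure D5:**
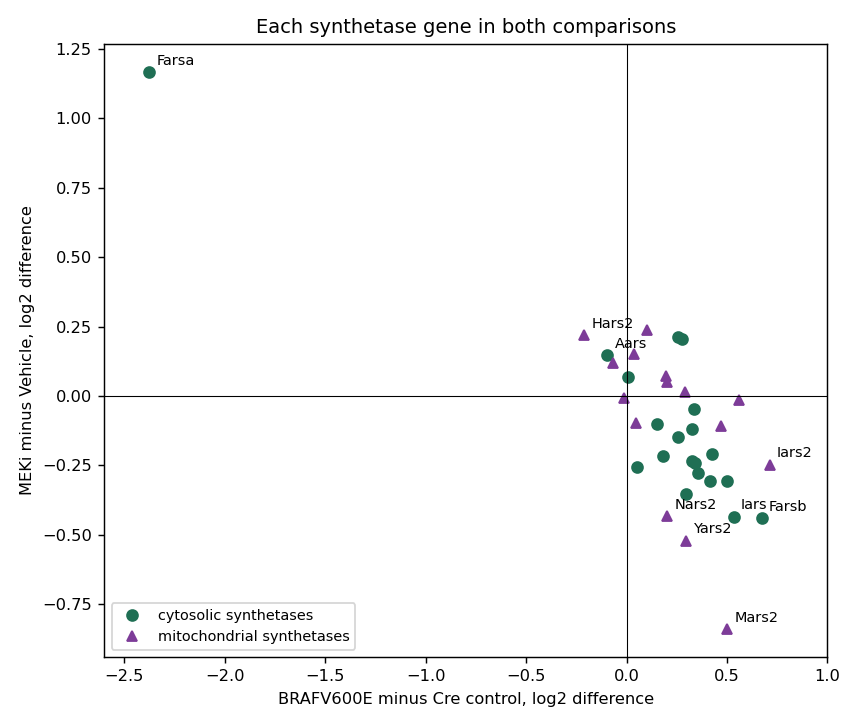
Log2 difference of each of the 35 synthetase genes between BRAFV600E and Cre control (horizontal axis) and between MEKi and Vehicle (vertical axis), circles cytosolic and triangles mitochondrial. Of the 35 points 22 lie at lower right, higher with BRAFV600E and lower with MEKi, and Farsa lies far from the other points, at −2.38 and +1.17.

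Transcripts of the proteins that work with the synthetases were called about as often as all genes. Of 16 partners and charging factors, 2 were called with BRAFV600E, both higher (12.5%, beside 12.2% of all genes called and 6.1% called higher, median of the list +0.38), and 0 were called with MEKi, where 2 had an unadjusted p under 0.05 in limma (median −0.04). Those that rose were Sepsecs, which completes the charging of selenocysteine tRNA (+0.51, SE 0.11, adjusted p = 0.0108), and Aimp1, a scaffold protein of the multisynthetase complex (+0.56, SE 0.14, adjusted p = 0.0205). Of 9 elongation factors, which bring charged tRNA to the ribosome or move it through, 3 rose with BRAFV600E (33.3%, beside 6.1% of all genes called higher, median +0.29). They were Tsfm (+0.66, adjusted p = 0.0210) and Gfm2 (+0.40, adjusted p = 0.0233) of the mitochondrion and Eef1g (+0.58, adjusted p = 0.0221) of the cytosol. With MEKi 8 of 9 were lower (median −0.12), 0 of them at an unadjusted p under 0.05 in limma.

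In the ATF4 programme list, which overlaps the synthetases in known control, 6 of 22 genes tested rose with BRAFV600E (27.3%, beside 6.1% of all genes) and 0 fell, with a median of +0.20. The strongest were Eif4ebp1, an inhibitor of translation initiation (+1.13, adjusted p = 2.46e-04), Psat1 of serine synthesis (+1.47, adjusted p = 7.60e-04) and the mitochondrial serine enzyme Shmt2 (+1.00, adjusted p = 0.00117). Atf4 itself differed by −0.17 (SE 0.21, adjusted p = 0.629) and Asns, asparagine synthetase and a standard ATF4 target, by +0.35 (SE 0.13, adjusted p = 0.0934). With MEKi, where the median of the list was −0.05, 1 of 22 fell (beside 0.884% of all genes), Eif4ebp1 (−1.18, adjusted p = 0.0117), while Atf4 differed by −0.07 and Asns by −0.12. In the list of MYC and ribosome biogenesis genes 3 of 16 rose and 1 fell with BRAFV600E (median +0.33, beside 6.1% and 6.13% of all genes), and 2 fell with MEKi (median −0.48, beside 0.884% of all genes). Myc itself was at +0.94 (adjusted p = 0.0492) and −1.0 (adjusted p = 0.113). The gene that fell with BRAFV600E was Mycn, another member of the MYC family (−0.97, adjusted p = 0.0052), which differed by +0.77 with MEKi (adjusted p = 0.191). The medians of the cytosolic synthetases, the partners, the elongation factors, the ATF4 list and the MYC list were all above 0 with BRAFV600E and below 0 with MEKi. So were those of the mitochondrial synthetases (+0.20 and −0.01). The MEKi medians of the partners (−0.04), the ATF4 list (−0.05) and the mitochondrial synthetases lay close to 0. The mitochondrial one was +0.01 after quantile normalization. Of all genes tested in both comparisons, 70.1% had opposite signs in either order, and 32.5% were higher with BRAFV600E and lower with MEKi. The medians over all genes tested were −0.02 with BRAFV600E and +0.04 with MEKi.

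Wars is also known as an interferon-induced gene. With MEKi 7 of 11 interferon response genes rose (63.6%, beside 1.07% of all genes called higher, median +1.57). Among them was Psmb8 at +1.97 (adjusted p = 0.00413 in limma), while Wars differed by −0.26 (SE 0.19, 95% confidence interval −0.70 to 0.18, adjusted p = 0.578 in limma). With BRAFV600E, where 10 of the 11 were lower (median −0.60, 1 called or 9.09%, beside 6.13% of all genes called lower), Wars differed by +0.05.

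Markers of other cell types and of cell division differed between the same groups. With BRAFV600E 2 of 6 smooth muscle genes and 2 of 6 proliferation genes rose (medians +0.50 and +0.66). Of 4 T cell genes tested 2 fell (median −0.91), 1 of 4 myeloid genes fell (median −0.59), and of 10 epithelial genes 2 rose and 3 fell. These counts are of genes called by limma, beside 6.1% of all genes called higher and 6.13% called lower. Summed smooth muscle signal ran from 71.2 to 107 times the array's 75th percentile in Cre control and from 70.3 to 160 in BRAFV600E. Summed T cell signal, on the same scale, had nearly the same median in both groups, 76.25 in Cre control and 77.21 in BRAFV600E. Of the 4 T cell genes 3 were lower with BRAFV600E and 1, Cd4, was higher (+0.28, not called). With MEKi 0 genes of these lists were called by limma, beside 1.96% of all genes. An unadjusted p under 0.05 in limma was found for 2 T cell and 2 epithelial genes, beside 3150 of all 19231. The part of these shifts in the synthetase differences was not tested.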

How the data were processed

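RNA of intestinal tissue from 20 mice was hybridised to 1-colour Agilent arrays. Per the file headers, the authors extracted each array with Agilent Feature Extraction (version 10.5.1.1), and the deposited processed intensity per spot is background-subtracted, linear and not scaled between arrays. The flags deposited with each intensity (above background, saturated, outlier) served as filters. The deposited series matrix holds the same intensity (100% of spots within rounding) and was used as the unscaled alternative. Control and outlier spots were left out, copies of a probe averaged, log2 taken and each array's 75th percentile subtracted. No pseudocount was used. Between 60.8% and 76.8% of spots per array were well above background, 0 were saturated, and the number of arrays limits the precision. Probes were named through RefSeq accessions, symbols or synonyms (25043 genes, 12271 probes unnamed and untested), and the brightest probe stood for a gene. The 2 design versions on the slides gave 2972 probes different names, and for every member probe the name in the files was that of the RefSeq match. Coordinates are the files' own (mm9).

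limma (version 3.58.1, R 4.3.3), the tool of the study, was run separately on the 12 and the 8 arrays with group as its sole term, over genes well above background on at least 6 of 12 or 4 of 8 arrays, with Benjamini-Hochberg adjustment over all genes. All p-values are two-sided. The fit was tested on simulated data. Replicate numbers follow accession order and pair nothing. A treatment text common to all labels describes a statin and matches no group, so groups came from the source names. The members and lists were chosen with earlier results of these data known. Every member is given with both differences; full statistics go to those called, or to the 3 of a class with the smallest p, and other genes are named from the lists, at most 3 of each by smallest p, with Myc, Atf4 and Asns. Alternatives were quantile normalization, normexp background (offset 50), unscaled values, other filters, the mean of all probes, array weights, a Y-linked covariate, slide as a block, slide 1 alone and leaving out each array. Testing every probe by itself was added after the data were seen. A further gene of the partner list and a further promoter match are not reported here.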

Additional observations from a re-analysis of the deposited data

Results flagged for a closer look

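Of 140 sets of arrays, 1 for each of the 35 genes in each of the 4 groups, 15 had an array that stood farther from the others of its group than Dixon's 95% limit allows. Chance alone gives about 1 in 20. All values are log2 levels relative to the array's 75th percentile. MEKi replicate 2 was the lowest of its group for Kars (3.596, the nearest other array 3.992), Rars (2.741 against 3.148) and Vars2 (−1.286 against −0.6833). MEKi replicate 3 was the highest of its group for Mars2 (−3.618 against −4.148) and Yars2 (0.8815 against 0.6336), and MEKi replicate 1 for Farsa (4.518 against 3.44). Vehicle replicate 2, the array with pancreas transcripts, was the highest for Aars2 (0.5371 against 0.1391) and Nars2 (−1.145 against −2.053). Cre control replicate 1 was the highest for Yars2 (1.326 against 0.7001) and the lowest for Cars2 (−0.9114 against −0.2284). Cre control replicate 6 was the highest for Mars2 (−3.058 against −3.636) and the lowest for Tars2 (2.163 against 3.442), and Cre control replicate 4 was the lowest for Wars (3.585 against 4.051). Among the BRAFV600E arrays replicate 5 was the lowest for Eprs (1.867 against 2.278) and replicate 4 for Nars2 (−2.636 against −1.468).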

How the results depend on the processing

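For BRAFV600E against Cre control, 22 alternatives were run, and Farsa was called lower in 21 of them, Farsb higher in 19 and Iars2 higher in 9. In place of 2 cytosolic and 1 mitochondrial calls there were 5 cytosolic calls with the normexp background, 6 and 2 with array weights, 1 and 0 with the mean of all probes (the 1 being Hars), 1 and 0 with slide as a block, and 1 and 0 within slide 1. Mitochondrial calls were 2 after quantile normalization and with genes above background on every array, and 0 without a filter. Without scaling between arrays the median of all genes was +0.79, and the cytosolic median was 1.12 with 20 calls and the mitochondrial 1.01 with 11. There Aars was at +0.71 and Rars2 at +0.80, against −0.10 and −0.01 with scaling. Leaving out each array gave 2 to 5 cytosolic calls, 5 without Cre control replicate 1, and 0 to 2 mitochondrial calls. The mitochondrial calls were 2 without Cre control replicate 1 or 6, and 0 without Cre control replicate 2, 3 or 5 or without BRAFV600E replicate 1, 2, 3, 4 or 6. Their median ran from 0.13 to 0.33, the cytosolic one from 0.25 to 0.35. With the mean of all probes Iars2 was at −0.25. Among the genes called, single tested probes turned the sign for Farsa (0.351, 0.233 and 0.0484) and Iars2 (−0.30, −0.82 and −1.02). Single tested probes of genes not called also turned it, among them those of Qars, Yars, Ears2, Hars2, Rars2, Sars2 and Tars2.

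For MEKi against Vehicle, 16 alternatives were run. Cytosolic calls were 0 in each. There was 1 mitochondrial call with the normexp background, with genes above background on every array, with array weights and without MEKi replicate 3 (Mars2 each time), and 1 with the mean of all probes (Yars2), so that leaving out each array gave 0 to 1. The medians without each array ran from −0.25 to −0.14 for the cytosolic and from −0.09 to 0.09 for the mitochondrial genes. The cause of these changes was not tested. No paired analysis was possible because the replicate numbers were given in accession order and pair no arrays. The number of arrays, 6 or 4 a group, and 1 probe for 10 of the 35 genes limit what can be detected. Slide 2 held no control, so the BRAFV600E arrays on it differ from the controls in slide as well as genotype, and these cannot be told apart there.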

Other observations

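Several partner genes of the synthetases had differences of opposite sign in the 2 experiments, as values with no explanation. Eef1e1, a scaffold protein of the multisynthetase complex, differed by +0.62 with BRAFV600E (SE 0.22, adjusted p = 0.0842 in limma) and by −0.62 with MEKi (SE 0.21, adjusted p = 0.200). Aimp1, called higher with BRAFV600E, differed by −0.29 with MEKi (SE 0.13, adjusted p = 0.319), and Sepsecs by −0.26 (SE 0.13, adjusted p = 0.364). Within the ATF4 list, Aldh18a1 of proline synthesis differed by −0.52 with BRAFV600E (SE 0.23, adjusted p = 0.153) and by +0.78 with MEKi (SE 0.16, adjusted p = 0.0532), while Psat1 of serine synthesis, which rose with BRAFV600E, differed by −0.61 with MEKi (SE 0.19, adjusted p = 0.170). The control and treated arrays of the 2 experiments are different mice.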
